A study of Drosophila melanogaster with 2 samples.

Results

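The 1781 regions described here are the peaks of E2f2 binding in Drosophila melanogaster embryos that stand in the larger pooled peak list of the study but in none of its conservative one. They were selected on their place in these lists: an entry of the larger thresholded list was taken when it overlapped no entry of the conservative thresholded list by 1 bp or more. They make up 20.4% of the 8752 entries of the larger list. They are called larger-list-only peaks below, and the other 6971 entries of the larger list, each of which overlaps a conservative entry, are called shared peaks.

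The study used ChIP-seq, in which chromatin bound to a protein is precipitated and its DNA sequenced, on whole embryos aged 0 to 24 h from flies carrying an E2f2-eGFP fusion transgene. Per the labels, the precipitation used an anti-GFP antibody, although a separate label names E2f2 as the target, and chromatin was sonicated to 200 to 800 bp. The 2 samples were biological replicates of this 1 group, with no untagged or input sample analysed here, and a whole embryo mixes all of its tissues. The signal is that of the tagged protein in all cells together, and no source used here gives the read depth.

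E2f2 is the fly E2F protein that acts mainly as a repressor. It binds DNA with its partner Dp, and with the retinoblastoma proteins Rbf and Rbf2 and the Myb-containing dREAM complex it holds genes of the cell cycle and of differentiation in check. The promoters best known for it carry an E2F site close to the transcription start site (TSS) of genes for DNA replication and mitosis.

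Most larger-list-only peaks lay away from promoters. Of the 1781, 893 summits were in an intron and 686 lay within 500 bp of the TSS of a protein-coding gene. The E2F site was present at 72 summits and the GAGA element at 114. The sequences of 7 of the peaks are shown because their summit windows hold the motifs on which the comparison with shared peaks turns. Each is the 201 bases centred on the summit, on the plus strand of dm6 as given by the RefSeq copy of the assembly, with the motif in capitals. The first pair holds the E2F site, in the forms TTTCCCGC, TTTGGCGC, TTTCGCGC or TTTGCCGC on either strand.
Dronc: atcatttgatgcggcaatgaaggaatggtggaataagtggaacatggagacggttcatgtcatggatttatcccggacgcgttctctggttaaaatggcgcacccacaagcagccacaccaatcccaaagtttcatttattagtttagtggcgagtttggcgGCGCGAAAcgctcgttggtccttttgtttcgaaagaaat
Eip63E: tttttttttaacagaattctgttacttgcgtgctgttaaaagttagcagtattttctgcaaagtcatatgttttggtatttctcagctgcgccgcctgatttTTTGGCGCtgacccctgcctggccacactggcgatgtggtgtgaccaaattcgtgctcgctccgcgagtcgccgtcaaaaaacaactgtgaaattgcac
The first came from chr3L:9968364-9968564, with the summit 15 bp from a TSS of Dronc, the initiator caspase of fly apoptosis, and the second from chr3L:3515638-3515838, with the summit 13 bp from a TSS of Eip63E, a cyclin-dependent kinase gene. The site started 62 bp from the summit at Dronc and 2 bp from it at Eip63E. At Dronc it started at position 9968526, past the end of the called peak at 9968499.

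The next 3 hold the GAGA element, GAGAGAG on either strand, which is bound by the GAGA factor at many developmental promoters.
MESR3: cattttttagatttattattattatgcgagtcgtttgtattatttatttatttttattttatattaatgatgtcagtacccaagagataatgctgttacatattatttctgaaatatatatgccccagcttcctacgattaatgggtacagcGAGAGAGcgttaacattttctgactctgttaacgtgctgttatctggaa
pnt: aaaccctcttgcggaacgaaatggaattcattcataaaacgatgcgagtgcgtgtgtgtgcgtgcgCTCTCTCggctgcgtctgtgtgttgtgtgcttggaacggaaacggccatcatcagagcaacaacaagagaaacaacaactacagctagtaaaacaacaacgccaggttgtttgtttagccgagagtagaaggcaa
bol: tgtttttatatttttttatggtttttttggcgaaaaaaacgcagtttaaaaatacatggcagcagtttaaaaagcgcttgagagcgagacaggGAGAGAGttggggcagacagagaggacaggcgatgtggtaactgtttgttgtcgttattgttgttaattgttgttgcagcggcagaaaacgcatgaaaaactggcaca
They came from chr2L:18617004-18617204 near MESR3, chr3R:23314427-23314627 near pnt, an ETS factor of receptor tyrosine kinase signalling, and chr3L:9124912-9125112 near bol, a testis translation regulator. Their summits lay 152, 212 and 301 bp from a TSS of these genes.

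The last pair holds the DRE, TATCGATA, a palindrome bound by Dref at promoters of housekeeping and replication genes.
mRpL10: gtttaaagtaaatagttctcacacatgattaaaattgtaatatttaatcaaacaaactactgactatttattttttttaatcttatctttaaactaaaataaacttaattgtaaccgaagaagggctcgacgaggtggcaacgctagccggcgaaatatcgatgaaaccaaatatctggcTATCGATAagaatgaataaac
Myb: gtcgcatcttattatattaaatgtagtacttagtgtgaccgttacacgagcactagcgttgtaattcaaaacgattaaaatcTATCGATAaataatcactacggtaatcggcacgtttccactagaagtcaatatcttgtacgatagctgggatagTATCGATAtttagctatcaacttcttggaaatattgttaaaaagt
They came from chr2L:203591-203791, 88 bp from a TSS of the mitochondrial ribosomal protein gene mRpL10, and chrX:15857768-15857968, 45 bp from a TSS of Myb, the dREAM subunit. The Myb window held 2 DREs and no E2F site.

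The choice of these peaks rests on the IDR, the irreproducible discovery rate, the authors' measure of the rate at which entries of a given rank disagree when 2 rankings are compared. Entries of both pooled lists have a −log10 IDR of 2 or more, which is an IDR no higher than 1%. In the ranking behind the larger list the larger-list-only peaks had a −log10 IDR of 2.00 to 4.95 with a median of 2.46, against 2.00 to 5 with a median of 4.05 for shared peaks. Of the 1781, 285 reached an IDR of 0.1% or less. These values chose the peaks and are given as a description.

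In the ranking behind the conservative list, 1745 of the 1781 stood as the same entry, all below the threshold, and the other 36 were not ranked there. The median −log10 IDR of the 1745 was 0.78, with quartiles of 0.18 and 1.60. Their distance from the line in the second ranking varied widely: 344 had an IDR there of 2% or less, 645 of 5% or less, and 660 were over 50% or not ranked. The 5 peaks just inside the threshold of the larger list had −log10 IDR values of 2.0003 to 2.0035 and signal values of 34.3 to 63.1, and lay nearest to CG12017, scb (at 2 of the 5), elm and plh. The 5 ranked entries just outside it had −log10 IDR values of 1.9985 to 1.9999 and signal values of 40.0 to 81.6, and lay nearest to msi, pnut, Ntan1, pyd and eIF5.

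**Figure D1:**
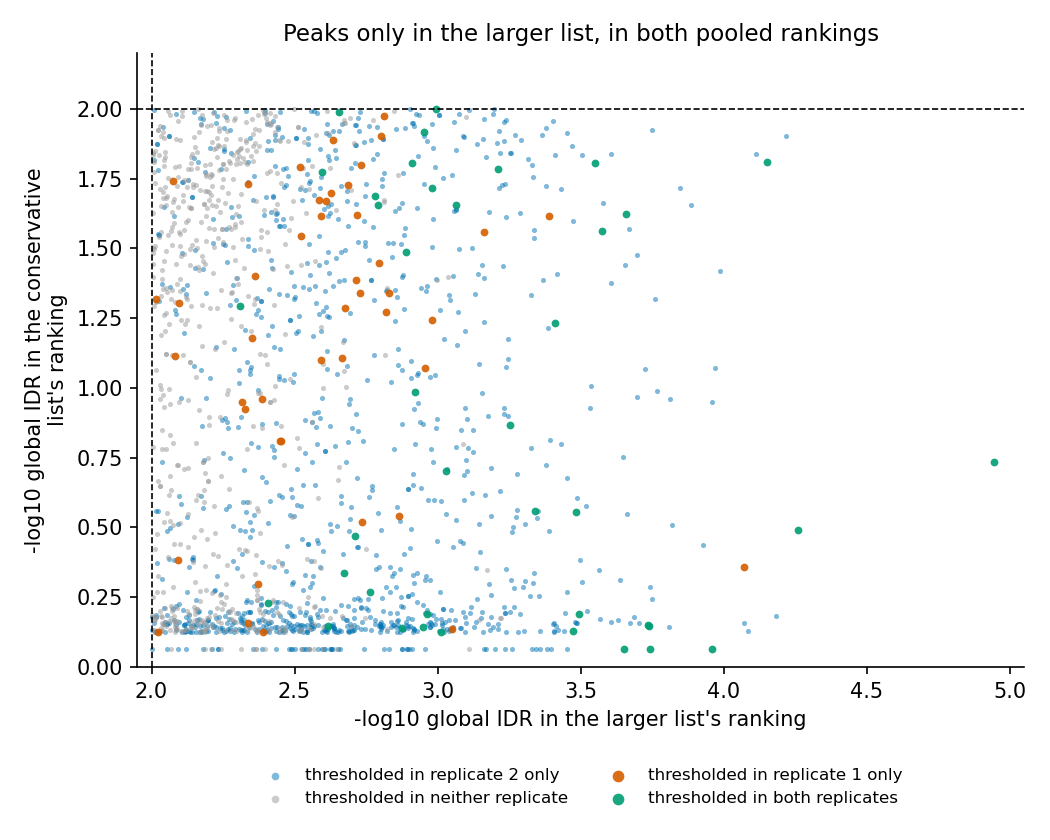
Each point is one of the 1745 larger-list-only peaks ranked in both pooled rankings, with its −log10 IDR in the larger list's ranking (x axis) against that in the conservative list's ranking (y axis), coloured by the replicates whose thresholded list holds an overlapping peak. Dashed lines mark the threshold of 2, and the points spread over the whole height below it, with a median of 0.78.

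The signal value, the peak caller's measure of peak strength, was lower than in shared peaks. The rule rests on the IDR of ranked entries, so the signal value too is given as a description. It ranged from 2.12 to 473 in larger-list-only peaks with a median of 72.1, against 2.10 to 4459 with a median of 183 in shared peaks. Signal values exceeded 100 in 300 of the 1781 and in 5456 of the 6971. Of the larger-list-only peaks, 1740 had the full width of 510 bp and a median signal value of 71.7, and the 41 narrower ones had a median of 158. They were mostly single peaks: 227 of them shared a merged region of overlapping entries with another, and 1661 merged regions held larger-list-only peaks and no shared peak. The gap to the nearest conservative entry had a median of 3573 bp, was under 1000 bp for 358 peaks and was over 10000 bp for 405.

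Support in the separate lists of the replicates came mainly from replicate 2. A thresholded peak of replicate 2 overlapped 1124 larger-list-only peaks, 63.1% (95% Clopper-Pearson interval 60.8 to 65.4), where 87.6% of all larger-list entries had one. A thresholded peak of replicate 1 overlapped 89, or 4.997% (4.03 to 6.11), where 59.6% of all larger-list entries had one. Both replicates supported 40 peaks, replicate 2 alone 1084, replicate 1 alone 49, and neither replicate 608, or 34.1% (31.9 to 36.4). Among shared peaks, both replicates supported 5004 of 6971, or 71.8% (70.7 to 72.8), and neither supported 310. The rule does not name the replicates' lists, but the pooled lists come from the same samples, so these counts are a description with no test.

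**Figure D2:**
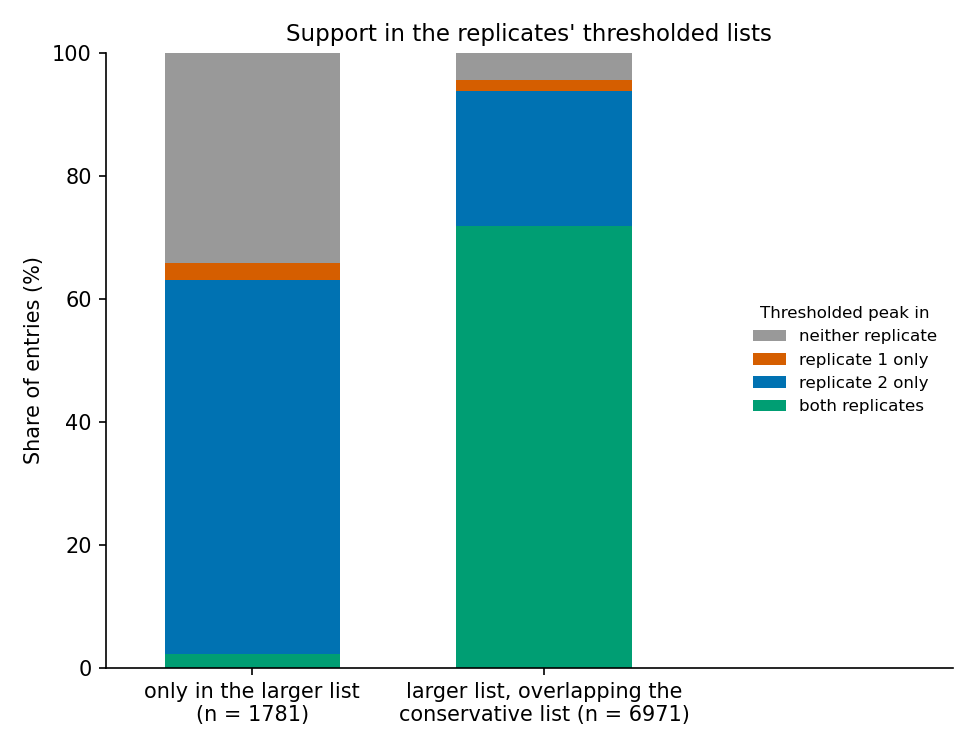
Stacked bars give the share of entries (y axis, percent) that overlap a thresholded peak of both replicates, of replicate 2 alone, of replicate 1 alone or of neither, for the 1781 larger-list-only peaks on the left and the 6971 shared peaks on the right. Support by both replicates covers 2.25% of the left bar and 71.8% of the right one.

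In the ranked lists, which hold entries of any IDR, nearly all larger-list-only peaks had an overlapping entry. Replicate 1 ranked 1650 of them (92.6%) and replicate 2 ranked 1757 (98.7%), both ranked 1627, and 1 peak was ranked in neither. The strongest overlapping entry had a median signal value of 19.7 in replicate 1, at a median place of 10805 among 52974 entries. In replicate 2 the median was 55.3, at a median place of 7470 among 76811. For shared peaks the medians were 71.0 in replicate 1 and 149 in replicate 2, at median places of 3054 and 3088. Signal values of different lists are set side by side here and were not compared as folds. The rule rests on the conservative IDR, so a split of the peaks by it is a description. Of the 660 peaks over 50% there or not ranked, 72.9% were thresholded in replicate 2 and 3.48% in replicate 1. Of the 645 peaks at 5% or less, the shares were 51.3% and 5.89%. The median replicate 1 signal value was 14.8 in the 660 and 21.8 in the 645.

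The strongest peaks of each kind of support were as follows. With support from both replicates, the highest signal value of the 1781 was at C1GalTA, which makes the core of mucin-type O-glycans: 473 in the larger list, with 66.0 in replicate 1 and 425 in replicate 2. Next came aos, a secreted antagonist of the EGF receptor, with 232 in the larger list, 47.6 in replicate 1 and 189 in replicate 2. Fer2LCH, the ferritin light chain, had 227, with 35.8 in replicate 1 and 187 in replicate 2. These 3 promoters passed the threshold in each replicate and in the larger list, and their −log10 IDR in the conservative ranking was 0.74, 0.49 and 1.81. Others of the 10 strongest with both replicates behind them lay at rdgBbeta, EcR, CG5339, betaTub97EF, CG34112, mi and CG5276.

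Dronc was the strongest peak thresholded in replicate 1 alone, with a signal value of 206 in the larger list, 71.1 in replicate 1 and 31.4 in replicate 2. Of the 10 strongest without a thresholded peak in either replicate, the first lay 8118 bp from CG7560 with a signal value of 147. It was followed by Sodh2, Lam, which encodes the B-type lamin, rsh, CG5674, Dp1, ctrip, CG18480, Hr3 and BNIP3, all between 96.9 and 121. The peaks of rsh and CG18480 had an entry in the ranked list of replicate 1 and none in that of replicate 2.

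Position along the genome was not used by the rule, and it differed between the sets. A summit lay within 500 bp of a protein-coding TSS for 686 of 1781 larger-list-only peaks, 38.5% (36.3 to 40.8), against 4987 of 6971 shared peaks, 71.5% (70.5 to 72.6). The odds ratio was 0.25 (95% Woolf interval 0.22 to 0.28, two-sided Fisher's exact test, adjusted p = 3.98e-142 over 21 tests of location and motif). Over the whole larger list the share was 64.8%, and over the 76935 entries of its ranking that lay below the threshold and overlapped neither pooled list it was 11.3%. The larger-list-only peaks thus stood between shared peaks and entries that failed the threshold. The median distance to a TSS was 1162 bp against 129 bp for shared peaks, and 23.7% lay over 5000 bp away against 8.56%. Peaks are not independent replicates, so these p-values describe the 2 lists and not repeated experiments.

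**Figure D3:**
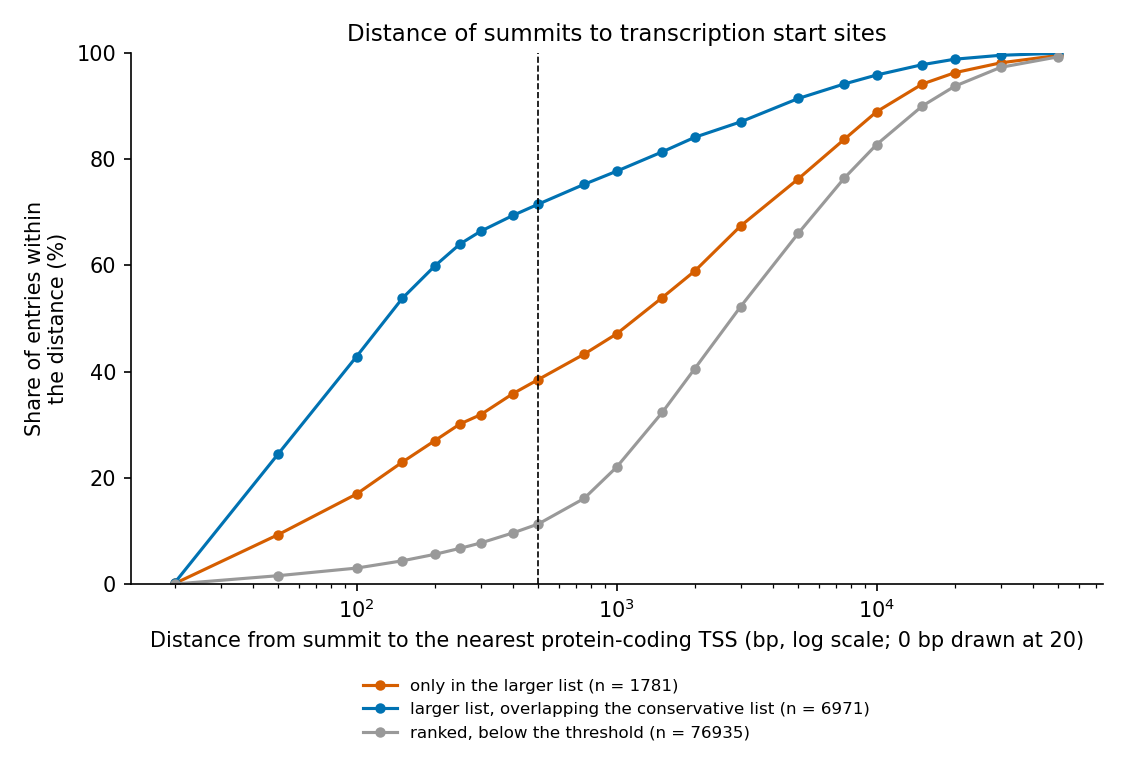
Curves give the cumulative share of summits (y axis, percent) within a distance of the nearest protein-coding TSS (x axis, bp on a log scale) for larger-list-only peaks, shared peaks and ranked entries below the threshold. At the dashed line, 500 bp, the curves stand at 38.5%, 71.5% and 11.3%.

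The lower share at promoters held at like signal values. Between signal values of 60 and 80, 261 of 694 larger-list-only peaks lay at a TSS, 37.6% (34.0 to 41.3), against 236 of 416 shared peaks, 56.7% (51.8 to 61.5). Between 100 and 150 it was 112 of 249, 45.0% (38.7 to 51.4), against 776 of 1314, 59.1% (56.3 to 61.7). Among the 51 strongest larger-list-only peaks, from 150 up, 52.9% lay at a TSS. The share was similar at any depth of the conservative ranking: 40.0% (36.2 to 43.9) where the IDR there was 5% or less and 36.8% (33.1 to 40.6) where it was over 50% or missing. By support it was higher in peaks that both replicates supported, at 31 of 40 or 77.5% (61.5 to 89.2), than in those with support from replicate 2 alone, at 38.3% (35.4 to 41.3), from replicate 1 alone, at 53.1% (38.3 to 67.5), or from neither, at 35.2% (31.4 to 39.1). The interval for replicate 1 alone overlaps that of the 40. Of shared peaks that both replicates supported, 79.6% (78.4 to 80.7) lay at a TSS, which is inside the interval of the 40.

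Introns took the largest share of summits. An intron held 893 of 1781 larger-list-only summits, 50.1% (47.8 to 52.5), against 1912 of 6971 shared summits, 27.4% (26.4 to 28.5), an odds ratio of 2.66 (2.39 to 2.96, Fisher's exact test, adjusted p = 1.71e-70). Intergenic summits were fewer, at 30.2% (28.0 to 32.3) against 50.4% (49.2 to 51.6), an odds ratio of 0.43 (0.38 to 0.48, exact adjusted p = 3.54e-53). Summits in a 5′ UTR were at 12.4% against 15.4% (odds ratio 0.77, exact adjusted p = 0.00182), and in a noncoding exon at 3.20% against 2.01% (odds ratio 1.61, exact adjusted p = 0.00599). The 5′ UTR difference was not past the threshold by 50% reciprocal overlap (odds ratio 0.86, exact adjusted p = 0.0752) or by summit membership (0.86, exact adjusted p = 0.0693), and among entries with a thresholded peak in replicate 1 the odds ratio was 1.17. Coding exons held 2.02% against 2.63% (odds ratio 0.77, 0.53 to 1.10, exact adjusted p = 0.214), and 3′ UTRs 2.13% against 2.15% (odds ratio 0.99, 0.69 to 1.42, exact adjusted p = 1). With a single entry per merged region the coding exon odds ratio was 2.53 (exact adjusted p = 0.000165), turned in direction, and with log2 signal value as a covariate it was 0.40, past the threshold. Of the ranked entries below the threshold, 43.5% were in an intron, 20.8% were intergenic and 26.1% were in a coding exon. An annotated transposable element held 4 of the 1781 summits, and 12 lay within 500 bp of the start of a tRNA gene, 0.674% against 0.316% of shared summits.

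**Figure D4:**
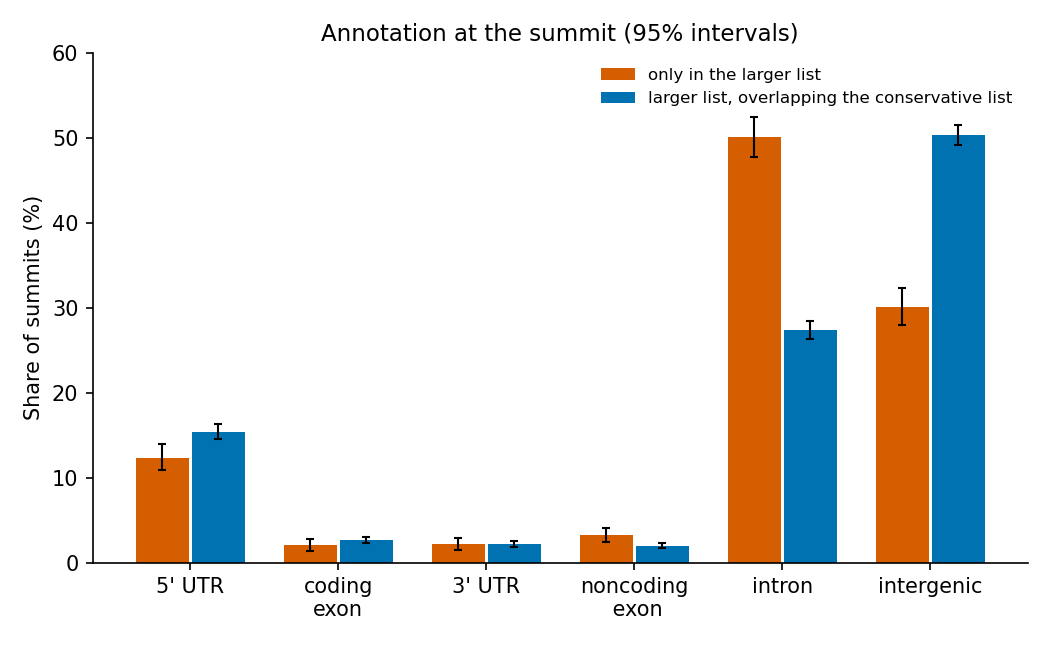
Bars give the share of summits (y axis, percent) in each annotation class (x axis) for larger-list-only peaks and, to the right of each, shared peaks, with 95% Clopper-Pearson intervals. Introns stand at 50.1% against 27.4%, and intergenic positions at 30.2% against 50.4%.

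Where larger-list-only peaks did lie at a TSS, fewer of those promoters were divergent, that is, had a TSS of another gene within 1000 bp upstream on the opposite strand. This held for 195 of 686, 28.4% (25.1 to 32.0), against 2112 of 4987 shared promoter peaks, 42.4% (40.97 to 43.7), an odds ratio of 0.54 (0.45 to 0.64, Fisher's exact test, adjusted p = 3.44e-12). Among larger-list entries with a thresholded peak in replicate 1 the direction was the opposite, with an odds ratio of 2.07 over 57 larger-list-only promoter peaks (exact adjusted p = 0.0299). By chromosome, the X held 313 of the peaks, 17.6% against 19.2% of shared peaks (odds ratio 0.90, 0.79 to 1.03, exact adjusted p = 0.166). With log2 signal value as a covariate in a logistic model the odds ratio was 0.79 and passed the threshold. The other arms held 352 on 2L, 322 on 2R, 402 on 3L and 384 on 3R, with 8 on chromosome 4.

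Of the 12 motifs searched, the E2F site, DRE, CGATA, Motif 1, E-box, CHR and Pho were less frequent at larger-list-only summits and GAGA was more frequent. Motifs were searched on both strands in the 201 bp around each summit. The E2F site stood in 72 of 1781 windows, 4.04% (3.18 to 5.06), against 557 of 6971 shared windows, 7.99% (7.36 to 8.65), an odds ratio of 0.49 (0.38 to 0.62, Fisher's exact test, adjusted p = 2.71e-09). Windows of the same length at the 5′ ends of all 13968 protein-coding genes held it in 4.50%, and ranked entries below the threshold in 4.12%. Most larger-list-only windows lie away from promoters, so the like comparison is that within 500 bp of a TSS. There the share was 4.66% (3.21 to 6.52), an interval that includes the 4.50% of promoters at large, against 8.94% (8.17 to 9.77) of shared windows. Over all windows, the form TTTGGCGC was in 1.24% of larger-list-only ones against 3.94% of shared ones, and TTTGCCGC in 1.24% against 1.18%. With log2 signal value as a covariate in a logistic model the E2F odds ratio was 1.10, the other side of 1. Against the weaker part of the shared peaks, those below their median signal value, it was 0.86 (exact adjusted p = 0.400), and among entries with a thresholded peak in replicate 1, of which 89 were larger-list-only, it was 0.34 (exact adjusted p = 0.161).

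The DRE stood in 36 larger-list-only windows, 2.02% (1.42 to 2.79), against 737 shared windows, 10.6% (9.86 to 11.3), an odds ratio of 0.17 (0.12 to 0.24, exact adjusted p = 8.90e-38), with 7.83% of all promoters holding it. CGATA, the core bound by BEAF-32 and also part of the DRE, was in 25.0% against 42.1% (odds ratio 0.46, exact adjusted p = 5.91e-41). The core of Motif 1, GGTCACAC, bound by M1BP, was in 2.13% against 8.19% (odds ratio 0.24, exact adjusted p = 3.53e-23), and the palindromic E-box CAGCTG in 8.48% against 13.3% (odds ratio 0.61, exact adjusted p = 2.98e-08). These elements mark housekeeping promoters, and all 4 were less frequent among larger-list-only peaks. Among entries with a thresholded peak in replicate 1 the odds ratios were 0.50 for the DRE (exact adjusted p = 0.248) and 0.32 for Motif 1 (exact adjusted p = 0.136). The CHR of cell cycle promoters, TTTGAA and its variant TTCGAA, was in 35.4% against 46.1% (odds ratio 0.64, exact adjusted p = 5.77e-16). Against the weaker shared peaks the CHR odds ratio was 0.94 (exact adjusted p = 0.400), and with log2 signal value as a covariate it was 1.01. Their shares over all promoters were 39.3% for CGATA, 6.74% for Motif 1, 13.8% for the E-box and 33.5% for the CHR. The like comparison is with larger-list-only windows within 500 bp of a TSS. These held the DRE in 4.37%, beside 7.83% of all promoters, and CGATA in 32.5%, Motif 1 in 5.10%, the E-box in 11.4% and the CHR in 34.8%.

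GAGA went the other way. It was in 114 of 1781 larger-list-only windows, 6.40% (5.31 to 7.64), against 190 of 6971 shared windows, 2.73% (2.36 to 3.14), an odds ratio of 2.44 (1.92 to 3.10, Fisher's exact test, adjusted p = 4.73e-12). All promoters held it in 3.68% and ranked entries below the threshold in 2.91%. Within 500 bp of a TSS the shares were 8.45% (6.48 to 10.8) against 2.55% (2.13 to 3.02), and over 1000 bp from one 4.88% (3.60 to 6.46) against 3.09% (2.29 to 4.08). Among entries with a thresholded peak in replicate 1 the odds ratio was 1.55 (exact adjusted p = 0.676). The element stood in 0 of the 40 larger-list-only peaks that both replicates supported and in 3 of the 49 that replicate 1 alone supported. Its share was 5.81% in those with support from replicate 2 alone and 7.89% in those with support from neither. By signal value the share was lower among the stronger larger-list-only peaks. It was 8.07% between 60 and 80, against 3.61% of shared peaks, and 2.81% between 100 and 150, against 3.73% of shared peaks.

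Of the remaining motifs, 3 did not differ past the threshold. TATAAA was in 30.6% against 30.2% (odds ratio 1.02, 0.91 to 1.14, exact adjusted p = 0.876), the STAT element TTCNNNGAA in 5.45% against 5.52% (0.99, 0.78 to 1.24, exact adjusted p = 1), and the Zelda element CAGGTAG in 0.842% against 0.875% (0.96, 0.55 to 1.70, exact adjusted p = 1). TATAAA did pass it at a stricter IDR of 0.005 and within 50 bp of the summit, with an odds ratio of 1.17 in each. The Pho element GCCATNTT was less frequent, in 2.92% against 4.22% (0.68, 0.51 to 0.92, exact adjusted p = 0.0162), but not past the threshold against the weaker shared peaks, where the odds ratio was 0.78 (exact adjusted p = 0.183), or over whole peaks, where it was 0.89 (exact adjusted p = 0.305). The E2F site without its first T was in 8.59% against 15.6% (0.51, 0.43 to 0.61, exact adjusted p = 6.25e-15), and includes every window with the full site. Against the weaker shared peaks its odds ratio was 0.81 (exact adjusted p = 0.0528), and with log2 signal value as a covariate 1.01. A match is a string of letters and not a bound site.

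**Figure D5:**
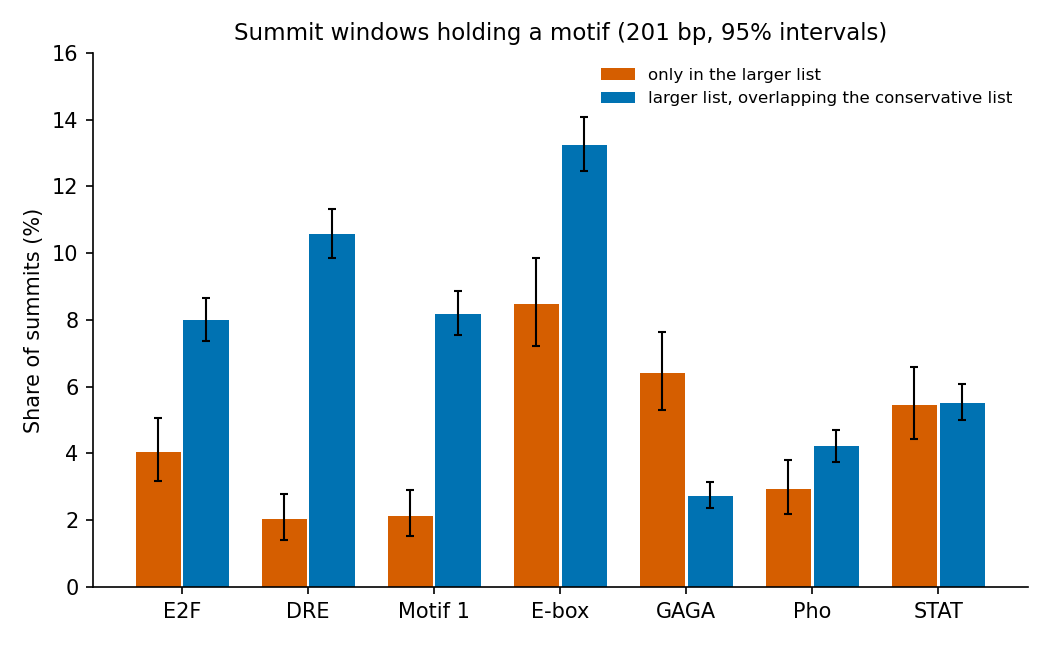
Bars give the share of 201 bp summit windows (y axis, percent) that hold each motif (x axis) for larger-list-only peaks and, to the right of each, shared peaks, with 95% Clopper-Pearson intervals. The E2F site, DRE, Motif 1, E-box and Pho are lower in larger-list-only peaks, GAGA is higher at 6.40% against 2.73%, and STAT is at 5.45% against 5.52%.

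By gene, a larger-list-only summit lay within 500 bp of a TSS of 777 of 13968 protein-coding genes, 5.56%. Of these, 152 also had a conservative summit within 500 bp, so that 625 genes, 4.47% of all, were reached by a larger-list-only peak and by no conservative one. Conservative summits reached 5681 genes, 40.7%. Of the 625 genes, 416 had a thresholded summit of replicate 2 at a TSS, 72 one of replicate 1, 42 one of each, and 179 one of neither. E2f2 itself had a conservative summit at its TSS and no larger-list-only one.

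Of 13 E2F, RB and dREAM genes, 11 had a conservative summit, beside 40.7% of all protein-coding genes. A larger-list-only summit was at 2 of them, or 15.4%, beside 5.56% of all genes. The 2 were Myb and l(3)mbt, of which Myb had no conservative summit. The Myb peak had a signal value of 58.5 in the larger list, 22.1 in replicate 1 and 39.3 in replicate 2, and was thresholded in neither replicate. Its −log10 IDR was 2.04 in the larger list's ranking and 1.90 in the conservative one, on either side of the threshold. The peak of l(3)mbt, an MBT-repeat protein associated with dREAM, had 118 in the larger list, 38.5 in replicate 1 and 78.9 in replicate 2. It lay 377 bp from a TSS of l(3)mbt and nearer, at 55 bp, to one of CG5934.

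Of 46 DNA replication genes, 45 had a conservative summit, beside 40.7% of all protein-coding genes. A larger-list-only summit was at 3 of the 46, 6.52%, beside 5.56% of all genes. The gene without a conservative summit was PolD1, which encodes the catalytic part of polymerase delta. Its peak lay 27 bp from the TSS and had a signal value of 141 in the larger list, 57.9 in replicate 1 and 80.5 in replicate 2, thresholded in both replicates. With it every gene of this list had a summit of one pooled list or the other. The genes chif, whose product activates the Cdc7 kinase, and Psf1, a GINS subunit, had larger-list-only peaks of 100.2 and 68.0 beside conservative ones.

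Among 52 genes of mitosis and chromosome segregation, 49 had a conservative summit, 94.2%, beside 40.7% of all protein-coding genes. A larger-list-only summit was at 3 of them, 5.77%, which is near the 5.56% of all genes. SMC3, a cohesin subunit, had no conservative summit and a peak of 90.1 in the larger list, 28.4 in replicate 1 and 63.4 in replicate 2. The gene barr, for a condensin subunit, had 104 and cnn, a centrosome scaffold, 96.6, both beside conservative summits. The barr peak lay 365 bp from lok, the Chk2 kinase, so both genes count the same peak. XRCC1, a single-strand break repair protein, had 43.0, with the summit 494 bp from its TSS. The genes lok and XRCC1 were the 2 of 37 DNA repair and checkpoint genes with a larger-list-only summit, 5.41%, also near the share of all genes. Within 250 bp of a TSS, or by nearest TSS alone, 0 genes of that list had a larger-list-only summit. Of 14 G1 and S phase regulators 1 had one, fzr, an activator of the anaphase-promoting complex, with 62.5 in the larger list, 61.2 in replicate 2 and no ranked entry in replicate 1. None of 19 nucleotide synthesis genes had one.

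Of the developmental lists, signalling and nuclear receptor genes had the larger shares, beside 5.56% of all genes. Of 53 signalling genes 8 had a larger-list-only summit at a TSS, 15.1%. Of the 8, 7 had no conservative one, beside 80.4% of all genes with a larger-list-only summit. After aos, the strongest were sav, a Hippo pathway scaffold, with 154 in the larger list, 88.5 in replicate 1 and 87.4 in replicate 2, and ex, another Hippo pathway member, with 87.0, 20.7 and 79.7. The sav peak lay 165 bp from a TSS of sav and nearer, at 24 bp, to one of Ublcp1. The Wnt receptor gene fz had 82.4, the Hedgehog pathway factor ci 73.7 and pnt 68.5. Of these 6, aos and sav were thresholded in both replicates, pnt in neither, and the other 3 in replicate 2 alone.

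Of 24 nuclear receptor and ecdysone response genes 4 had a summit at a TSS, 16.7%: Eip63E with 95.7, Eip75B with 80.2, Hnf4 with 71.9 and EcR with 71.1. The first 3 also had a conservative summit and EcR, the ecdysone receptor, did not. The EcR peak 51 bp from a TSS had 21.2 in replicate 1 and 49.5 in replicate 2 and held an E2F site. A second EcR peak, in an intron 5748 bp from a TSS, was stronger, with 182 in the larger list, 62.9 in replicate 1 and 125 in replicate 2, and was thresholded in both replicates.

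Of 34 segmentation and homeotic genes 3 had a summit at a TSS: sog, a Dpp antagonist, with 92.2, cad, a posterior homeodomain factor, with 75.2, and dpp, a BMP ligand, with 72.8. Neuronal function genes counted 4 of 41, which were the potassium channel gene Shaw with 103, the guidance receptor gene robo2 with 77.5, the cell recognition gene Dscam1 with 76.3 and cpx, a regulator of synaptic release, with 63.5. None of these 4 had a conservative summit, which is also so for 80.4% of all genes with a larger-list-only one. Neural fate factors counted 1 of 33, pros with 68.4, muscle structure genes 1 of 22, Act57B with 44.2, Polycomb and trithorax genes 2 of 26, ph-p with 74.2 and Su(z)2 with 64.5, and germline genes 2 of 28, pum with 72.4 and tud with 71.5. Apoptosis genes counted 1 of 15, which was Dronc.

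In the other lists the shares of genes with a larger-list-only summit ran from 0% to 7.69%. Mitochondrial ribosomal protein genes counted 5 of 73, the strongest mRpS21 with 118 and mRpL10 with 105, proteasome subunits 3 of 48, among them Prosalpha3, thresholded in both replicates, with 63.2, and translation initiation factors 2 of 26. Respiratory chain genes counted 3 of 84, cytosolic ribosomal protein genes 2 of 93, chemosensory receptors 2 of 179, cuticle proteins 1 of 122, testis-specific genes 1 of 27, and chromatin and insulator factors and replication-dependent histones 0 of 18 and 0 of 111. The replication-dependent histones had a conservative summit at 0 of 111 as well. Whether reads could be placed among their repeated copies was not tested. The counts are a description, with no test of any list.

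Away from TSSs, 719 larger-list-only summits lay in an intron over 500 bp from any protein-coding TSS, within the spans of 519 genes, 3.72% of all. Of the 519, 371 held a single one and 13 held 4 or more. Of these, rdx, a BTB protein of Hedgehog signalling, and tkv, a BMP type I receptor, held 6 each, with signal values of 18.3 to 112 at rdx and 19.8 to 85.5 at tkv. The genes ush, ftz-f1, CG1677 and shn, a zinc finger factor downstream of tkv, held 5 each, and pnt, tai, hth, Mob2, fra, T48 and InR held 4 each. These 13 were named after their values were seen. Of the 13, tkv and T48 held no shared intronic peak away from a TSS, while CG1677 held the most, 8, and ftz-f1, shn and ush held 5 each.

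The genes that held such peaks were long, with a median span of 24.4 kb against 2.16 kb for all protein-coding genes. A longer span has more room for a peak, but no share given here was adjusted for span, and its part was not tested. A conservative summit stood at a TSS of 328 of the 519, 63.2%, beside 40.7% of all protein-coding genes. Of 24 nuclear receptor and ecdysone genes, whose median span was 22.4 kb, 9 held one or more, 37.5%, and 10 held a shared intronic peak. Of 53 signalling genes 13 did, 24.5%, against 17 with a shared one. Over all protein-coding genes, with their median span of 2.16 kb, the shares were 3.72% with a larger-list-only intronic peak and 5.49% with a shared one. Besides EcR, the nuclear receptor list gave ftz-f1 with 5 peaks, Hr4 with 3, Eip75B and Hr39 with 2 each, and Hr3, Eip74EF, crol and Eip93F with 1 each. E2f1, the activating E2F, held 2, the stronger of them with a signal value of 102, and Cdc7 held 1. Of the homeotic genes, Antp and Ubx held 2 each and Abd-B 1.

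The 10 strongest peaks over 1000 bp from a TSS had signal values of 175 to 231, and 8 of them lay in introns. The first was at Irk1, an inwardly rectifying potassium channel gene, with 231 in the larger list, 29.2 in replicate 1 and 193 in replicate 2. CG7329 followed with 224, 14218 bp from its TSS, and 18.5 in replicate 1 and 204 in replicate 2. The others were nearest to Rdh, CG43245, trbl, a pseudokinase that slows the cell cycle, bin, a visceral mesoderm factor, Sema1a, an axon guidance ligand, rib, EcR and CG12362. Of the 10, the EcR peak was thresholded in both replicates and the other 9 in replicate 2 alone.

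The 20 strongest promoter peaks had signal values of 158 to 473. Besides those named above, they lay at nSMase, a neutral sphingomyelinase gene, with 184, Dus2, a tRNA dihydrouridine synthase gene, with 183, whd, a carnitine palmitoyltransferase gene, with 165, and EndoGI, an inhibitor of endonuclease G, with 162. The remaining ones were CG15172, CG1236, CG12075, CG16812, CG6983, CG10365, CG7896 and MESR3. The E2F site stood in 1 of the 20 windows, that of Dronc, where it lay past the end of the called peak. The DRE stood at rdgBbeta and CG5339, and the GAGA element at MESR3.

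The converse set was smaller. Of the 7312 conservative entries, 322 overlapped no entry of the larger list, with a median signal value of 71.5. Summits lay at a TSS in 160 of the 322, 49.7%, and in an intron in 43.5%. GAGA stood in 3.42% of their windows and the E2F site in 4.35%. A thresholded peak of neither replicate overlapped 62.1% (56.6 to 67.4), against 34.1% of larger-list-only peaks, and one of replicate 2 alone 25.8% (21.1 to 30.9), against 60.9% (58.6 to 63.1). A thresholded peak of replicate 1 overlapped 12.1% (8.76 to 16.2) of these peaks, against 4.997% (4.03 to 6.11) of larger-list-only peaks. The median replicate 1 signal value was 27.9 against 19.7. Both replicates supported 4.97% (2.87 to 7.94) of these peaks and 2.25% (1.61 to 3.05) of larger-list-only peaks, with overlapping intervals. The larger-list-only peaks and these peaks had like median signal values in their own lists. They differed most in the shares supported by replicate 2 alone and by neither replicate.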

How the data were processed

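Peak lists were analysed from 2 biological replicates of 1 group, in dm6 coordinates per the labels, counted from 1. Each replicate and the pooled series had ranked and thresholded lists. Which rankings were compared to make each pooled list, the aligner, the peak caller and the depth are not stated by the sources used here. The signal value comes from the authors' peak caller, going by the column layout as deposited, on a scale that is not stated. The −log10 global IDR was read from the authors' deposited ranked lists. A further 8 unnamed columns of each ranked list were not used.

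Annotation was Ensembl release 115, without transposable elements as genes, and sequence the RefSeq copy of the same assembly, whose chromosomes hold every peak. A summit took the first class that held it among exons (5′ UTR before coding before 3′ UTR before noncoding), then introns, then intergenic. Of list symbols, 6 matched no gene and are left out. Shares have Clopper-Pearson 95% intervals. Larger-list-only and shared entries were compared by two-sided Fisher's exact tests with Benjamini-Hochberg adjustment over 21 tests, checked on simulated data (scipy 1.17.1, statsmodels 0.14.6). The region set, gene lists and motifs were chosen with earlier results of these data known. Genes named are those nearest the 20 strongest promoter peaks, the 10 strongest peaks over 1000 bp away, the 10 strongest with both or neither replicate, the 5 on each side of the threshold, genes of 6 cell cycle lists and up to 6 of each other list. Hosts of intronic peaks were named after their values were seen. Alternatives changed the overlap rule, windows, threshold, comparison entries and replicate support.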

Additional observations from a re-analysis of the deposited data

How the results depend on the processing

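Values here are odds ratios of larger-list-only over shared peaks unless named otherwise. The shares at a TSS, in introns and in intergenic positions kept their direction and their side of the 0.05 threshold under every alternative run, with ranges of 0.24 to 0.46, 1.88 to 2.87 and 0.40 to 0.78. The number of larger-list-only peaks was 1919 by 50% reciprocal overlap, 1922 by summit and 1661 with a single entry per merged region. Genes with a larger-list-only summit numbered 777 within 500 bp of a TSS, 587 within 250 bp, 973 within 1000 bp and 625 by nearest TSS alone. The E2F, RB and dREAM list fell from 2 genes to 1 within 250 bp and by nearest TSS alone.

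Restricting to entries with a thresholded peak in replicate 2 (without replicate 1) or in replicate 1 (without replicate 2) gave 0.34 to 0.52 for the E2F site, 0.16 to 0.50 for the DRE, 0.20 to 0.32 for Motif 1, 1.55 to 2.31 for GAGA and 0.58 to 2.07 for divergent promoters, whose direction turned. It gave 0.71 to 1.17 for 5′ UTRs, 0.40 to 1.97 for coding exons, 0.48 to 1.01 for 3′ UTRs and 0.69 to 1.34 for Zelda. The replicate 1 restriction leaves 89 larger-list-only peaks, so its tests have few peaks. CGATA (0.71), the E-box (0.43), the short E2F form (0.72) and noncoding exons (1.89) also lost the threshold there.

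Against weaker shared peaks the E2F site was at 0.86, its short form at 0.81, the CHR at 0.94 and Pho at 0.78, none past the threshold. Pho also lost it in the whole peak (0.89), in the replicate 1 restriction (0.77), at TSSs (0.79) and away from them (0.62). 5′ UTRs lost it under both other membership rules, at 0.86. With log2 signal as a covariate the E2F site was at 1.10, its short form at 1.01 and the CHR at 1.01, all turned. The X share, at 0.79, passed the threshold with that covariate. Support in replicate 2 was 59.3% by 50% reciprocal overlap.

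Coding exons turned to 1.23 under 50% reciprocal overlap and under summit membership, to 2.53 with a single entry per merged region and to 1.46 at peak midpoints. They passed the threshold below 1 with log2 signal (0.40), against weaker shared peaks (0.43), without replicate 1 (0.40), at the stricter IDR (0.59) and 1000 bp or more from the conservative list (0.61). 3′ UTRs turned to 1.04 with a single entry per merged region, 1.00 under a stricter IDR of 0.005 and 1.01 at midpoints. TATA turned to 0.97 under both other membership rules, and passed the threshold at 1.17 under the stricter IDR and in the narrower window. STAT turned to 1.02 and 1.01 under those rules, 1.06 for peaks 1000 bp or more from the conservative list and under the stricter IDR, and 1.02 with a single entry per merged region. Zelda turned to 1.45 in the narrower window and 1.34 in the whole peak.

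After the data were seen, motifs were also compared by place. At TSSs Zelda turned to 1.94 and TATA to 0.92. Away from TSSs Motif 1 was at 0.36 and no longer past the threshold, the E-box turned to 1.17 and TATA to 0.98. The cause of these changes was not tested. Peak lists carry no read counts, so the precision of a single peak is not known.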
